A study of Mus musculus with 8 samples.

Results

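The regions described here are the last 5 Mb of 16 mouse autosomes, the ends that lie away from the centromere. They were examined in 6 deposited lists of H2A.X domains from mouse embryonic stem (ES) cells. The rule took chromosomes 1 to 19 without 6, 8 and 11, set each chromosome's end at the highest end position in any of the lists, and kept every domain with at least 1 base in the last 5 Mb, clipped to that window. This gave 855 domains of the 25499 in the lists and of the 19928 on these 16 autosomes, and 61 of the 855 crossed the inner edge of their window. The windows span 80 Mb of 2069 Mb, or 3.87% of the length. The end of a chromosome is thus the end of its outermost called domain, so the windows depend on the calls in that 1 respect and on no mark or score.

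Each list sets a pair of H2A.X chromatin immunoprecipitation libraries against each other and marks every domain as enriched in the first or the second. The domains of a list that carry the same mark are called a side here. The DNMT1 list compares DNMT1 KO cells in serum medium with a control. Wild-type cells in serum and in 2i make up the medium list, and the PKCi and SRCi lists each set 2i against a medium with other inhibitors. In the PKCi medium protein kinase C was blocked with Gö6976 at 5 µM. In the SRCi medium CGP77675 at 1.5 µM blocked Src kinases and CHIR99021 at 3 µM blocked GSK3. The cells the labels describe for these lists are 129S6/C57B6, and those of the remaining lists are 129/Ola. The TDG list sets wild-type cells against Tdg KD cells, and the TKO list wild-type cells against TKO cells, all in serum. The labels do not spell out TKO. Which library is first was read from the order of conditions in each list's name, so every direction below rests on that order. The labels describe 1 library for each condition they cover, and the serum wild-type and DNMT1 control libraries enter only through the lists. No difference between conditions therefore has a replicate check, no p-value is given, and read depth is unknown. Positions are on mm9, and no gene annotation or genome sequence of that build was used here, so no gene is assigned to a domain and no sequence is shown.

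H2A.X is a variant of histone H2A that cells phosphorylate around DNA breaks, and ES cells carry much of it. Mouse autosomes are telocentric: the centromere lies at the start of the numbering, so the window described here lies toward the telomere of the only long arm. DNA next to telomeres is rich in repeats and is methylated by the DNA methyltransferases, of which DNMT1 copies existing methylation after replication. TDG is a glycosylase that removes oxidised methylcytosine during demethylation. Medium with 2i, which blocks MEK and GSK3, lowers DNA methylation in ES cells. How H2A.X is spread along the chromosome end in these conditions is the subject of the comparisons.

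The sides fall into 6 broad and 6 narrow ones, a naming chosen after their coverage was seen. Over the 16 autosomes as a whole, the broad sides covered 85.0% (SRCi), 83.3% (PKCi), 44.2% (DNMT1 control), 33.0% (serum), 28.0% (TDG KD) and 22.3% (TKO control) of bases. The narrow sides covered 4.82% (2i over serum), 3.54% (DNMT1 KO), 0.414% (TKO), 0.302% (2i over SRCi), 0.293% (2i over PKCi) and 0.288% (TDG control). These shares are the background against which the windows are read. They are shares of called bases and do not measure the amount of H2A.X. Sides are named by the mark alone. On all 6 broad sides, TDG KD included, the sign of the authors' score went against the mark in most domains of the windows, as given below.

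The TDG KD side filled the chromosome ends more than the rest of the chromosomes. Its 33 domains in the windows covered 40.2 Mb, which is 50.3% of the 80 Mb, against 27.1% of the rest of the same chromosomes, a ratio of 1.86. On 11 of the 16 chromosomes the window was covered more than its own rest. By number, 33 of 702 TDG KD domains on these chromosomes were in the windows, 4.70% (Wilson 95% interval 3.37% to 6.53%, which covers counting error only), a share near the 3.87% of length. On the other sides this share ran from 3.46% for serum to 6.92% for 2i over PKCi (9 of 130 domains). The TDG KD members were long, with a median of 817 kb before clipping against 445 kb elsewhere, and 13 of them held at least 1 Mb of a window.

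TDG KD coverage was uneven between chromosomes, from 0% to 100% with a median of 56.3%. Chromosome 4 was covered entirely, by a single domain of 8443 kb at chr4:147187001-155630000 that runs to the chromosome end. Chromosome 7 followed at 88.5%, chromosome 15 at 84.5% and chromosome 9 at 80.4%. In contrast, the windows of chromosomes 3, 13, 17 and 18 held no TDG KD domain. The rest of those chromosomes carried 17.7%, 21.9%, 38.8% and 20.4% in turn. Empty windows of the same length also lay elsewhere on them. Counted from the most covered window, the last one ranked 24 of 31 on chromosome 3 and 16 of 24 on chromosome 13. It ranked 18 of 19 on chromosome 17 and 12 of 18 on chromosome 18. All later ranks were tied with it at 0%, so an empty window was not particular to the end, least of all on chromosomes 3, 13 and 18. The last windows of the other 12 chromosomes held between 34.1% and 100%, so the last windows fell into an empty and a well-covered group with a wide gap between them. On chromosomes 3 and 13 the TDG list had no domain of either side in the window, its last domain ending 5111 kb and 6020 kb before the chromosome end, whereas on chromosomes 17 and 18 it reached the end with a TDG control domain.

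Serum domains of the medium list showed the same layout. The 135 serum domains in the windows covered 36.7 Mb, 45.9% of the windows against 32.5% of the rest, a ratio of 1.41, and 11 of 16 chromosomes had more in the window than in their rest. By number, 3.46% of the 3903 serum domains on these chromosomes were in the windows, which hold 3.87% of the length. Coverage ran from 0% to 95.3%, with a median of 51.5%. Chromosome 4 was again the highest. Its longest serum domain, chr4:151231001-154867000, measured 3636 kb and was the longest serum domain in any window. Chromosomes 15, 9, 7 and 5 followed, at 79.9%, 74.4%, 72.8% and 72.0%. On chromosomes 17 and 18 the serum side had no domain in the window, and on chromosomes 3 and 13 it had 0.500% and 5.94%, so the 4 windows without TDG KD were also the 4 lowest for serum. The next lowest was chromosome 14 at 19.6%, where TDG KD covered 54.4%, the widest difference between these sides among the 16 windows.

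**Figure D1:**
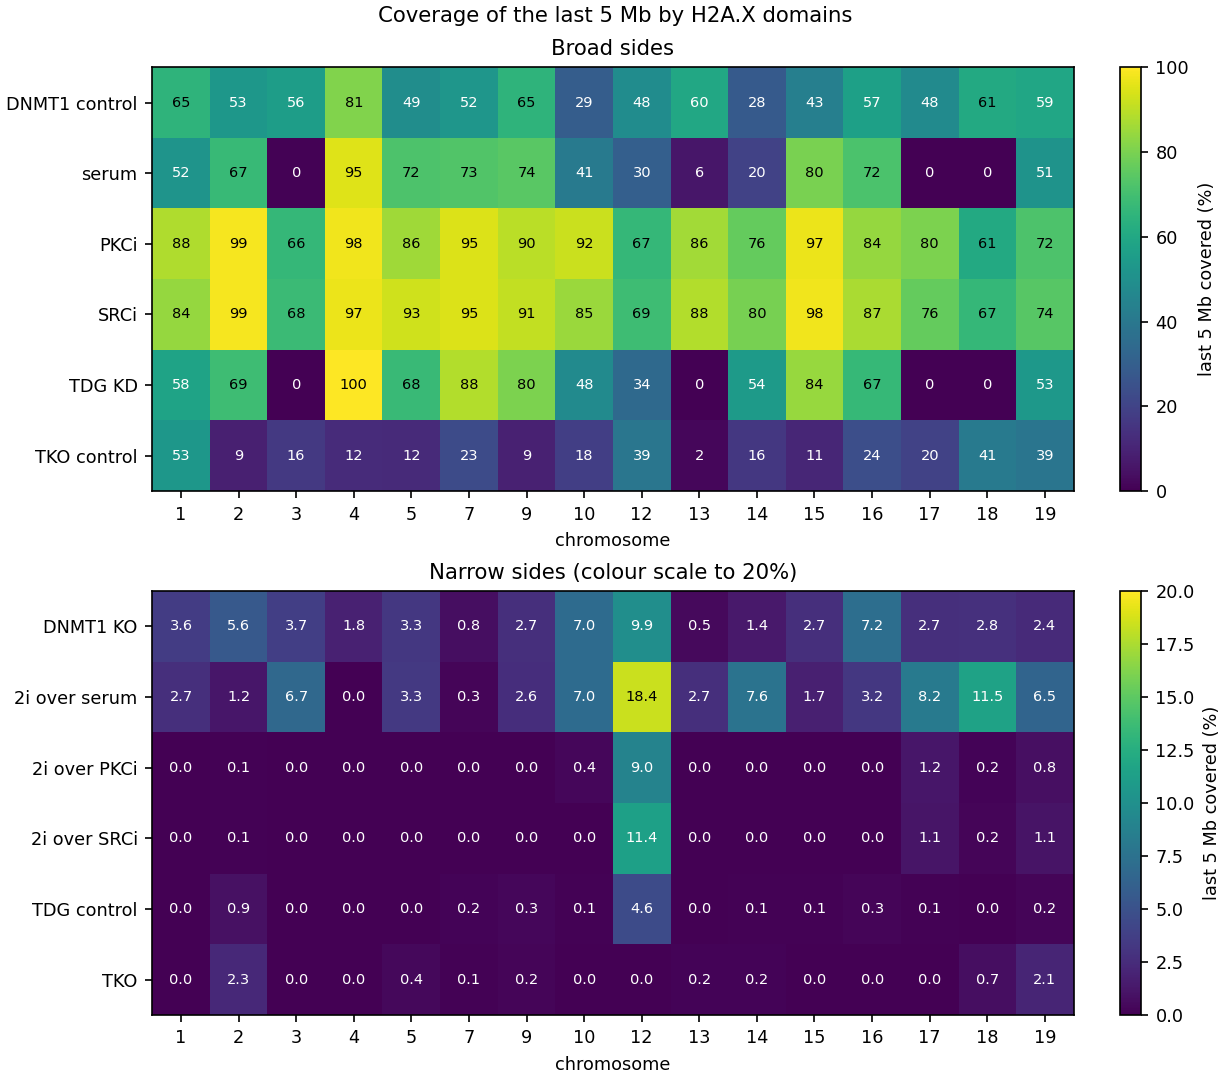
Percent of the last 5 Mb of each of 16 autosomes (columns) covered by the domains of each side (rows), as colour and printed value, with broad sides above on a scale to 100% and narrow sides below on a scale to 20%. The serum and TDG KD rows are at or near 0 on chromosomes 3, 13, 17 and 18 and highest on chromosome 4, and chromosome 12 stands out in 5 of the narrow rows.

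The labels name no library common to the medium and TDG lists, and the 2i and TDG libraries are from different strains. Across the 16 windows, serum and TDG KD coverage had a Spearman rho of 0.958 and a Pearson r of 0.959. Over the 391 other windows of 5 Mb on the same chromosomes, counted back from the end, rho was 0.859 and r 0.861, so the likeness is not limited to the ends. Neighbouring windows are not independent, and the part of base composition in the likeness was not tested. At base level, 32.5 Mb of the windows lay in both sides. That was 80.7% of the TDG KD bases, where serum covers 45.9% of the windows, and 88.5% of the serum bases, where TDG KD covers 50.3%. In the rest of the chromosomes the shares were 72.3%, where serum covers 32.5%, and 60.2%, where TDG KD covers 27.1%. Such shares rise with the coverage of the other side, so they do not show closer sharing in the windows. Of the 33 TDG KD domains 31 met a serum domain, but domains this long meet others easily: 32 met a PKCi domain, and 17 met a domain of 2i over serum, with which they shared 0.569% of their bases.

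**Figure D2:**
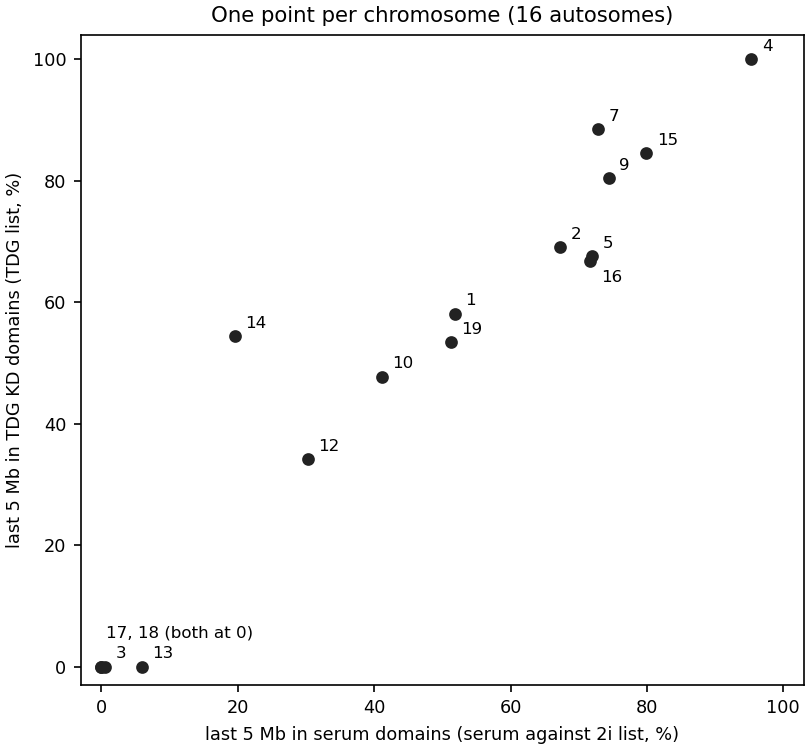
Each point is 1 of 16 chromosomes, with the percent of its last 5 Mb in serum domains on the horizontal axis and in TDG KD domains on the vertical axis. Chromosomes 3, 13, 17 and 18 lie at 0 for TDG KD and at most 5.94% for serum, chromosome 4 lies at the top of both, and chromosome 14 lies off the trend at 19.6% and 54.4%.

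DNMT1 control domains followed another pattern between chromosomes. The 98 members covered 42.8 Mb, 53.4% of the windows against 43.9% of the rest, a ratio of 1.22, with 13 of 16 chromosomes higher in the window. Every window held some, from 28.4% on chromosome 14 to 80.9% on chromosome 4, with a median of 54.4%. Chromosomes 3, 13, 17 and 18, where TDG KD was absent, had 55.7%, 59.8%, 47.8% and 60.7% in DNMT1 control domains. The rho with TDG KD over the 16 windows was 0.127, and over the 391 other windows 0.156. Still, 67.1% of TDG KD bases in the windows lay in DNMT1 control domains, which cover 53.4% of the windows. In the rest this share was 57.8%.

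Stretches where DNMT1 control, serum and TDG KD domains coincide made up 31.3% of the windows, or 25.1 Mb on 12 chromosomes, against 13.5% of the rest. Alone, DNMT1 control covered 53.4% against 43.9%, serum 45.9% against 32.5% and TDG KD 50.3% against 27.1%. More coincidence follows from such higher coverage, and whether it went beyond that was not tested. The longest stretch was chr4:151257001-154537000, 3280 kb, which is a whole DNMT1 control domain and the longest of that side in any window. Next came chr2:178183001-179638000 with 1455 kb and chr16:94991001-96149000 with 1158 kb. Whether the DNMT1 control and serum libraries are the same is not given in the sources used here. On chromosome 7 a domain at chr7:151738001-152524000, which reaches the chromosome end, has identical edges as DNMT1 control, serum and PKCi.

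The raised coverage did not stop at 5 Mb. From 5 to 10 Mb from the end, TDG KD covered 58.4%, from 10 to 15 Mb 47.3% and from 15 to 20 Mb 48.6%, while everything farther in had 23.7%. Serum went from 55.0% to 47.6% and 46.0%, against 30.2% farther in, and DNMT1 control from 59.9% to 60.1% and 60.9%, against 41.6%. For these 3 sides the last 5 Mb were thus covered less than the 5 Mb next to them. Ranked among the consecutive 5 Mb windows of its own chromosome, the last one was highest for serum on 3 chromosomes. These were chromosome 4, above all 30 others, chromosome 16, above all 18, and chromosome 19, above all 11. For TDG KD it was highest only on chromosome 4, above 28 of 30 others and level with the rest, and for DNMT1 control on none.

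**Figure D3:**
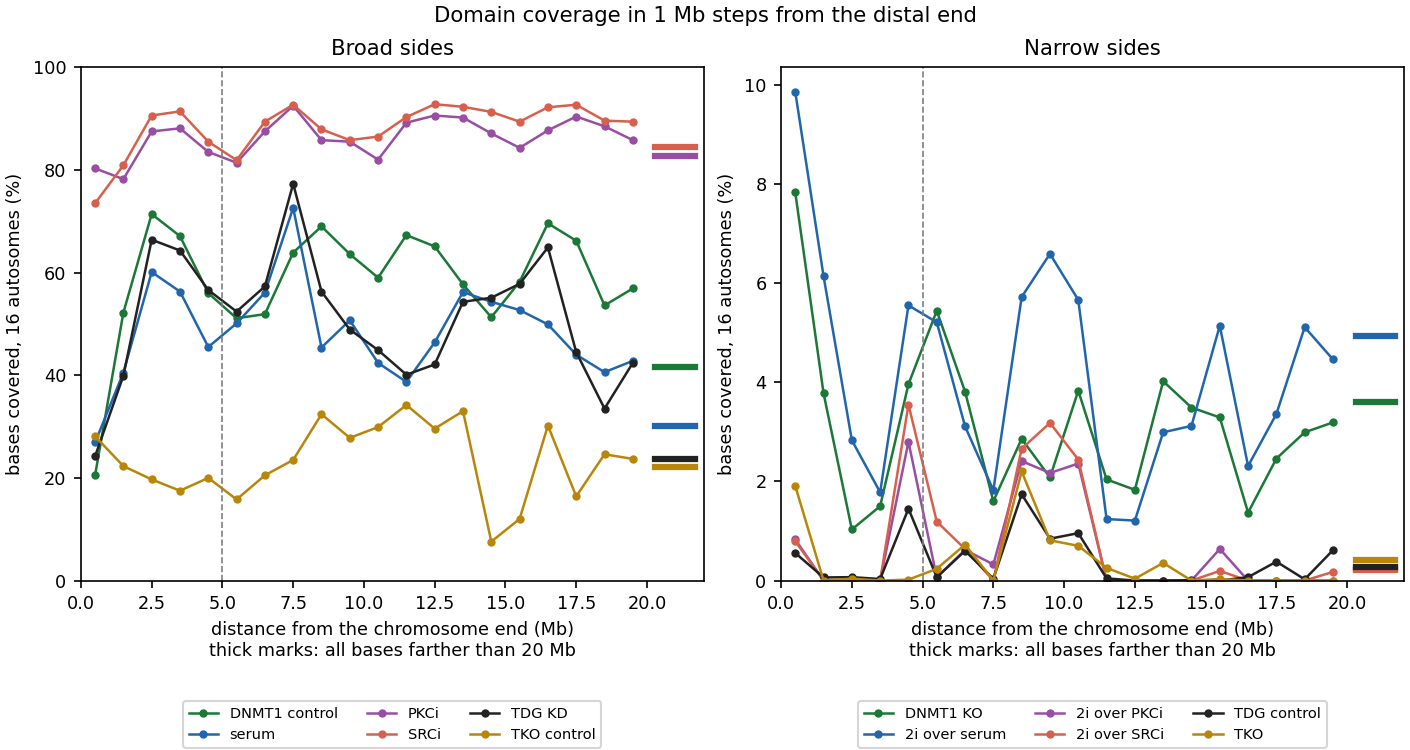
Percent of bases covered (vertical axes) in 1 Mb steps from the distal end (horizontal axes) over 16 autosomes, with broad sides on the left and narrow sides on the right; the dashed line marks 5 Mb and thick marks at the right edge give the coverage farther than 20 Mb from the end. DNMT1 control, serum and TDG KD are lowest in the outermost 1 Mb, at 20.5%, 26.9% and 24.2%, where DNMT1 KO and 2i over serum are highest, at 7.83% and 9.86%.

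Within the windows these broad sides thinned toward the tip. DNMT1 control covered 20.5% of the outermost 1 Mb and 61.7% of the 4 Mb inside it, and was lower in the outermost 1 Mb on 15 of 16 chromosomes. Chromosome 7 was the exception, at 88.1% against 43.5%. Serum covered 26.9% against 50.6%, lower on 13 chromosomes and higher on 1, and TDG KD 24.2% against 56.8%, lower on 10 and higher on 1. In both of these the higher one was again chromosome 7, with 87.7% against 69.1% for serum and 100% against 85.7% for TDG KD. The length of the window therefore matters: for the last 2 Mb alone, the ratio to the rest was 0.820 for DNMT1 control, below 1, and fell from 1.86 to 1.15 for TDG KD.

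PKCi and SRCi domains, broad everywhere, covered the windows about as much as the rest. PKCi had 107 members and 83.5% of the windows against 83.3% of the rest, and SRCi had 135 members and 84.4% against 85.0%. On 12 of 16 chromosomes for PKCi and 11 for SRCi the window was covered more than its own rest. A count of 11, as for TDG KD and serum, thus does not by itself set a side apart. The lists share the 2i condition, so their values are given side by side. Chromosome 2 was the most covered by each, at 98.7% for PKCi and 98.6% for SRCi, and chromosome 18 the least, at 60.8% and 66.7%. The longest clipped PKCi domain was chr4:151234001-155630000, with 4396 kb up to the chromosome end. That of SRCi lay within chr15:96280001-102308000, of whose 6028 kb 3813 kb fall in the window. In SRCi, 14 of 16 chromosomes had less coverage in the outermost 1 Mb than in the 4 Mb inside it (73.5% against 87.1%). In PKCi this held for 9 (80.3% against 84.3%).

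TKO control domains were not raised at the ends. Their 65 members covered 21.5% of the windows and 22.4% of the rest, and 10 of 16 chromosomes were lower in the window. Coverage ran from 1.80% on chromosome 13 to 52.9% on chromosome 1, which held the longest member, chr1:194809001-196014000, with 1205 kb. The outermost 1 Mb was covered more than the 4 Mb inside it, at 28.1% against 19.9%, and on 10 of 16 chromosomes, the opposite of what DNMT1 control, serum and TDG KD showed. Over the 16 windows, rho was -0.299 with TDG KD and -0.316 with serum, and over the 391 other windows -0.158 and -0.157. TKO control shared 44.9% of its window bases with TDG KD, which covers 50.3% of the windows.

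Among the narrow sides, DNMT1 KO and 2i over serum covered more of the tip of the chromosome than of the bases inside it, while over whole windows they were near background. The end is set by the outermost domain of any list, so the outermost step holds a domain end by construction, and its values are a description. DNMT1 KO had 56 members covering 3.62% against 3.53% of the rest, and 2i over serum had 181 members covering 5.23% against 4.80%. In the outermost 1 Mb, however, DNMT1 KO covered 7.83% against 2.57% in the 4 Mb inside it, and was higher there on 12 of 16 chromosomes. For 2i over serum the values were 9.86% and 4.07%, higher on 11. In the outermost 100 kb DNMT1 KO reached 37.6% and 2i over serum 32.1%. In the next 100 kb they had 12.4% and 10.7%, and between 300 and 400 kb from the end 2.69% and 3.75%.

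DNMT1 KO domains lay in the last 100 kb of 8 of 16 chromosomes, where 9.00% of the other 100 kb steps of these chromosomes hold at least 1 kb of that side. Nothing is read from this share or from those given for the other sides, because the outermost step was placed by the called domains. They filled all 100 kb on chromosomes 16 and 17, 99 kb on chromosome 10, 96 kb on chromosome 2 and 93 kb on chromosome 19. On chromosome 18 they took 51 kb, on chromosome 3 39 kb and on chromosome 13 24 kb, and on the other 8 none. The median length of these 8 domains was 106 kb, where DNMT1 KO members farther in had 34.5 kb. Their median signed score was -7.12 against -6.78, where a lower score is farther toward the knockout. The 8 were picked for reaching an end placed by called domains, which long domains do more easily, so nothing is read from these medians. Among the 8 are chr17:95136001-95272000, chr16:98203001-98319000 and chr2:181652001-181748000, which run to the end position set here for their chromosomes.

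Domains higher in 2i than in serum lay in the last 100 kb of 11 of 16 chromosomes, against 22.1% of the other 100 kb steps. They filled 91 kb on chromosome 3, 87 kb on chromosome 10, 82 kb on chromosome 16 and 74 kb on chromosome 17. On chromosome 2 only 7 kb were covered, in 3 short domains. One of these, the last 1 kb of the chromosome at chr2:181747001-181748000, had a score of -90.0, the farthest toward 2i of all 2i-over-serum members. The same 1 kb was the farthest-scoring member of the 2i side against PKCi, at 49.0, in a list that shares the 2i condition. Of the 8 chromosomes with DNMT1 KO in the last 100 kb, all 8 also had 2i over serum there, which was present on 11 of all 16. Nothing is read from this overlap either, as the DNMT1 control and serum libraries may be the same. Chromosomes 1, 4, 5 and 7 had none of the narrow sides in their last 100 kb.

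**Figure D4:**
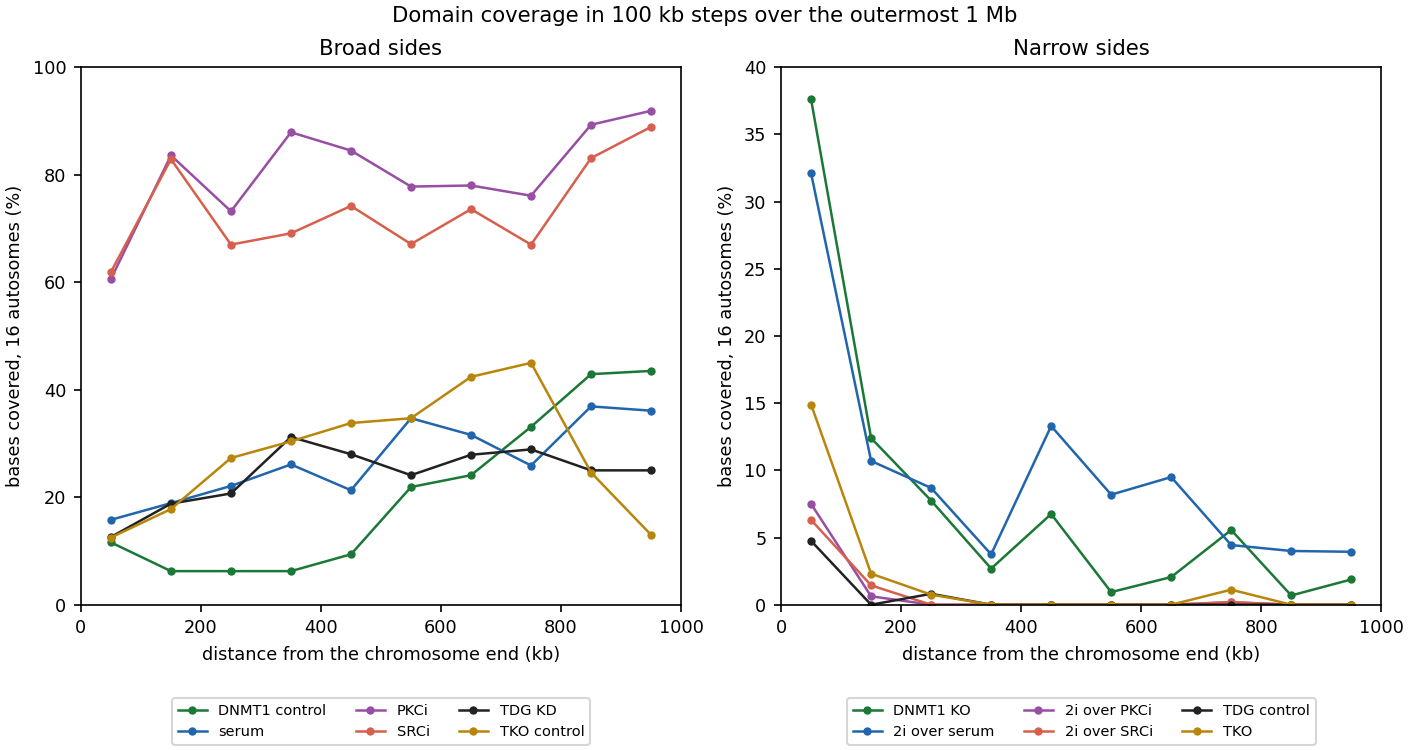
Percent of bases covered (vertical axes, to 100% on the left and 40% on the right) in 100 kb steps over the outermost 1 Mb of 16 autosomes (horizontal axes: distance from the end), with broad sides on the left and narrow sides on the right. All 6 narrow sides are highest in the outermost step, led by DNMT1 KO at 37.6% and 2i over serum at 32.1%, and DNMT1 control is at or below 11.6% over the last 500 kb.

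The 4 other narrow sides had lower levels at the tip. TKO domains covered 14.9% of the last 100 kb, 2i over PKCi 7.50%, 2i over SRCi 6.31% and TDG control 4.75%. They were present in the last 100 kb of 4, 5, 4 and 6 chromosomes in turn, where 1.37%, 0.842%, 0.769% and 1.89% of the other 100 kb steps hold their sides. For the broad sides, DNMT1 control was present in the last 100 kb of 3 chromosomes against 53.5% of other steps, serum in 4 against 47.6%, TDG KD in 3 against 31.2%, and TKO control in 4 against 29.5%. PKCi was present on 13 against 92.0% and SRCi on 12 against 93.9%. A base can carry only 1 side of a list, so the narrow and broad sides of the same list are not separate results.

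TKO and TDG control domains in the windows were few. Of the 10 TKO members, 4 lay in the last 100 kb. The longest, chr19:61237001-61342000 with 105 kb, and chr2:181651001-181748000 with 97 kb both end with their chromosome. Over the windows TKO covered 0.393% against 0.414% of the rest, but without the outermost 1 Mb the ratio fell from 0.947 to 0.0339, and for the last 2 Mb it was 2.35. DNMT1 KO domains held 79.9% of TKO bases in the windows and 34.1% in the rest, and TKO held 8.67% of DNMT1 KO bases in the windows. The tip domains of chromosomes 19 and 2 named above made up most of the 314 kb of TKO in the windows. DNMT1 KO covered 93 kb and 96 kb of the last 100 kb there, so the 79.9% rests largely on these tips. TDG control had 19 members with a median of 6.0 kb, of which 14 met a DNMT1 KO domain. By bases, DNMT1 KO held 92.8% of TDG control in the windows and 66.8% in the rest, and TDG control held 11.1% of DNMT1 KO in the windows. Chromosome 12 gave 228 of the 347 kb of TDG control in the windows, all inside DNMT1 KO domains, so the 92.8% rests largely on that chromosome. With only the 50% of domains whose score lay farthest toward their side, the 92.8% fell to 35.7%. Its farthest-scoring member was the last 1 kb of chromosome 18, chr18:90771001-90772000, at 29.8. The farthest-scoring TKO and DNMT1 KO members also lay on chromosome 18, at the same place near the inner edge of the window. They are chr18:85883001-85886000, at -16.1, and chr18:85885001-85886000, at -40.7.

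Narrow sides also covered much of chromosome 12 between 4 and 5 Mb from its end. In that megabase 2i over serum covered 691 kb, 2i over SRCi 568 kb, DNMT1 KO 495 kb, 2i over PKCi 448 kb and TDG control 228 kb, and TKO none. The longest window members of all 5 sides lie there. These are chr12:116687001-117098000 of 2i over serum (411 kb), chr12:116600001-117085000 of 2i over SRCi (485 kb), chr12:116723001-117067000 of 2i over PKCi (344 kb), chr12:116717001-116931000 of DNMT1 KO (214 kb) and chr12:116833001-116922000 of TDG control (89 kb). The 3 lists that name 2i share that condition, so their domains here are not separate results. The DNMT1 and TDG lists do not name it. The DNMT1 control and serum libraries may be the same, so DNMT1 KO and 2i over serum are not shown to be separate results.

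DNMT1 KO and 2i over serum may thus have been called against a common library. Their domains coincided in 45 stretches in the windows, 1.33 Mb on 14 chromosomes and 1.67% of the windows against 1.54% of the rest. The longest, 214 kb, and the next, chr12:116388001-116502000 with 114 kb, are both on chromosome 12, followed by chr3:157618001-157708000 with 90 kb. On chromosome 12 the 2i-over-serum domain there scored -27.9 against a median of -20.8 for that side in the windows, and the DNMT1 KO domain -12.6 against -6.90. The broad sides left most of this megabase free, with 185 kb of DNMT1 control, 32 kb of serum, 53 kb each of PKCi and SRCi and 17 kb of TDG KD, while TKO control had 170 kb.

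Much of the window coverage of 3 narrow sides lay at this place. Chromosome 12 gave 81.7% of the window bases of 2i over SRCi, 77.1% of 2i over PKCi and 65.7% of TDG control, against 21.9% of 2i over serum and 17.1% of DNMT1 KO. The ratios of window to rest were 3.12, 2.64 and 1.54 for the first 3 of these sides. Without chromosome 12 they were 0.651, 0.653 and 0.552, below 1. For 2i over serum the ratio went from 1.09 to 0.921 and for DNMT1 KO from 1.02 to 0.917.

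**Figure D5:**
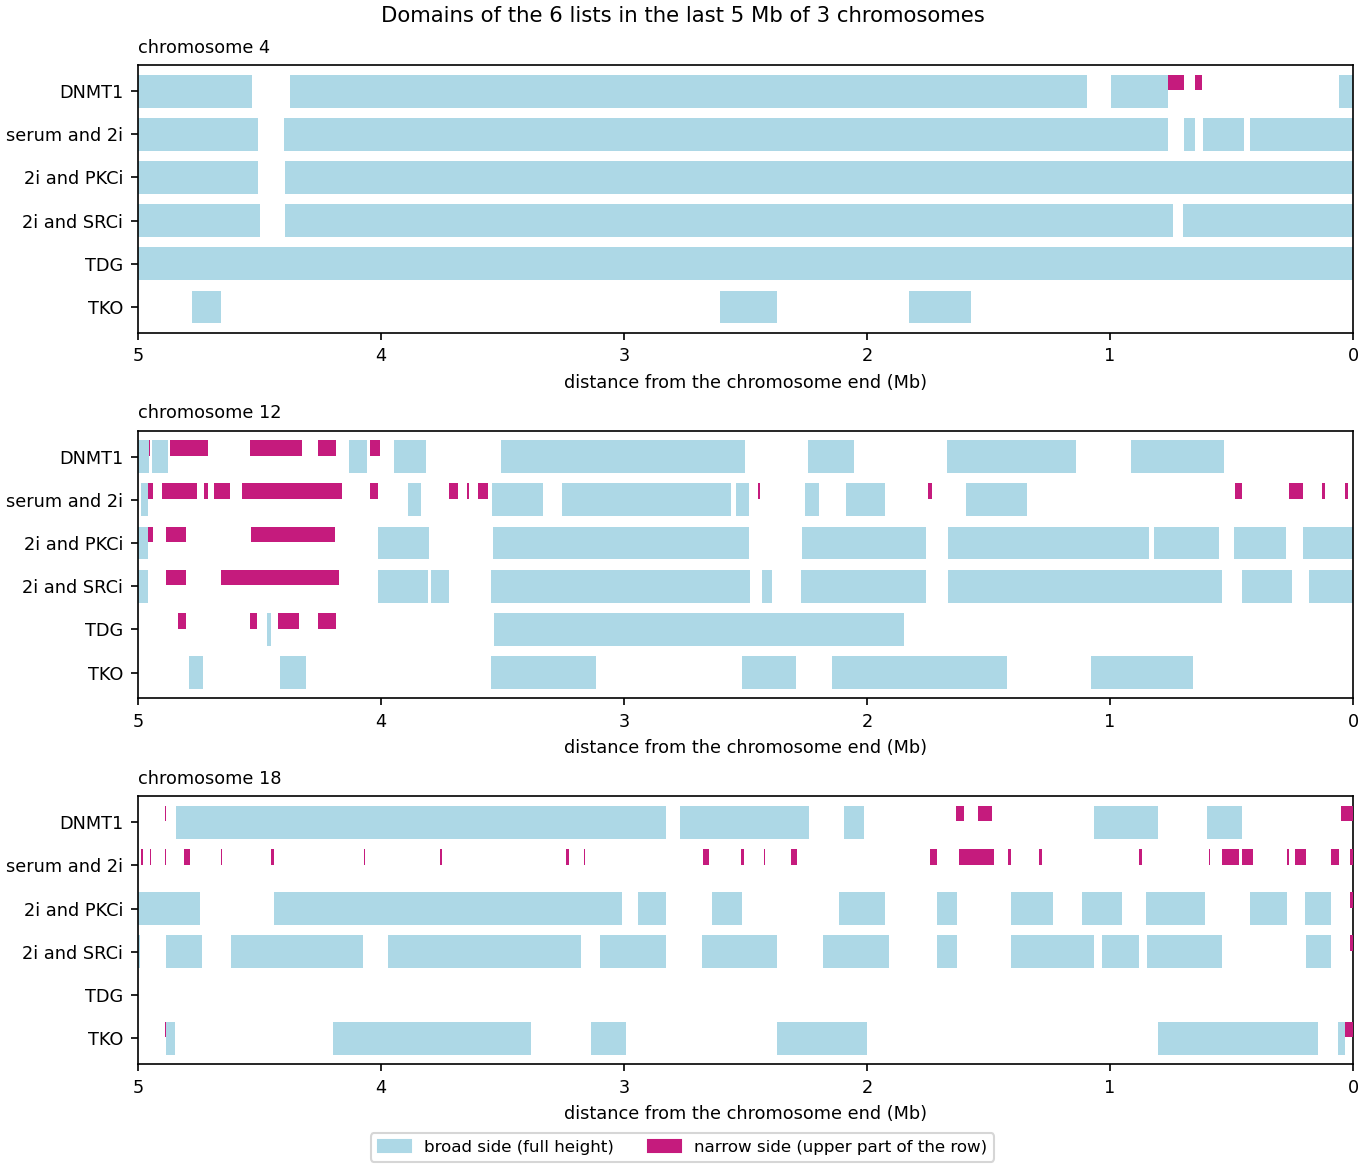
Domains of the 6 lists (rows) in the last 5 Mb of chromosomes 4, 12 and 18 (panels), by distance from the chromosome end in Mb with the end at the right; pale full-height bars are broad sides, dark bars in the upper part of a row are narrow sides, and domains of a few kb are too thin to see. Chromosome 4 is filled by TDG KD and almost filled by serum, PKCi and SRCi, chromosome 12 has narrow sides of 5 lists between 4 and 5 Mb, and chromosome 18 has no serum or TDG KD domain and short narrow domains at its tip.

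Members of some sides differed in median length from the other domains of their side, as a description. TDG KD members, as given above, were longer, and the 7 members of 2i over SRCi had 53 kb against 26 kb. Serum members had a median of 169 kb against 92.0 kb elsewhere, DNMT1 control members 332 kb against 245 kb, SRCi members 272 kb against 343 kb and TKO control members 187 kb against 218 kb. The 2i-over-serum members stayed short, at 12 kb against 11 kb, and 70 of 181 were under 10 kb. The median signed score, which rises toward the first library, was -6.47 in the 10 TKO members against -4.38 elsewhere, -7.50 in serum members against -7.60 elsewhere and -2.55 in DNMT1 control members against -2.60. In TDG KD members it was 0.246 against 0.286, and 23 of the 33 had scores above 0, toward the TDG control. All 135 serum members likewise had scores below 0, toward 2i. Among DNMT1 control members 96 of 98 and among TKO control members 59 of 65 had scores below 0, and all 107 PKCi and 135 SRCi members had scores above 0. On all 6 broad sides the sign of the score thus went against the mark in most members, and the score scale is not stated.

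Members with scores farthest toward a broad side were mostly small and did not coincide with the longest ones. For DNMT1 control it was chr2:177004001-177005000 (3.83), for TDG KD chr2:176908001-176910000 (-1.80) and for TKO control chr2:176857001-176861000 (5.20), all near the inner edge of the chromosome 2 window. On chromosome 9 lay the ones of serum, chr9:123759001-123832000 (-2.60), of PKCi, chr9:118454001-119162000 (2.43), and of SRCi, chr9:122925001-122974000 (3.96). The farthest-scoring member of 2i over SRCi was chr2:181027001-181030000, at 32.3.

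The outermost called base also differed between lists. The highest end position, which defines the window, was reached on 11 of 16 chromosomes by the medium list, on 12 by the PKCi list, on 11 by the SRCi list, on 7 by the DNMT1 list and on 5 each by the TDG and TKO lists. The TDG list stopped a median of 186 kb and at most 6020 kb before the end, and the TKO list a median of 208 kb and at most 3187 kb. In the windows 49.3% of bases had no domain in the TDG list, against 72.7% in the rest, and 48.9% against 62.7% in the medium list. In the TKO list the values were 78.1% and 77.2%.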

How the data were processed

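The data are 6 domain lists that the authors deposited, made from pairs of H2A.X libraries of native chromatin digested with micrococcal nuclease. The submitters' processing notes name Bowtie2 2.0.6 and the build mm9. Domain caller, settings and depth scaling were not given in the sources used here. A line of a deposited list gives 1 domain with edges on a 1 kb grid, its mark, a signed score and a summed score. These scores are the authors' own, with no unit stated, and were used only within a list. Depth is unknown.

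Domains were placed on the 1 kb grid with Python 3.11.15, numpy 2.4.6 and pandas 2.3.3. Coverage, its ratio to the rest of the same chromosomes, steps from the end, and shared bases between lists that share no library by the labels were computed. Wilson 95% intervals of shares used scipy 1.17.1. The functions were tested on simulated data. No test between conditions was possible with 1 library each, and chromosomes are not replicates. Alternatives were the last 2 or 10 Mb, the 50% of domains with the farthest score, leaving out blocks of no signal (score within 0.05 of 0 in the 3 lists naming 2i), all 19 autosomes, the rest without its first 5 Mb, and overlaps of 50%. Those without chromosome 12 or without the outermost 1 Mb, and the 100 kb steps, were chosen after seeing the data.

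The regions and comparisons were chosen with earlier results of these data known. The rule for named regions took, per side, the longest clipped domain and the one with the farthest score, the chromosomes most and least covered, and the 3 longest stretches where chosen sides coincide. Other regions were named after their values were seen.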

Additional observations from a re-analysis of the deposited data

How the results depend on the processing

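The ratio of window to rest coverage depended on the window and on single places. In the order DNMT1 control, DNMT1 KO, serum, 2i over serum, 2i over PKCi, PKCi, 2i over SRCi, SRCi, TDG control, TDG KD, TKO control and TKO, it was 1.22, 1.02, 1.41, 1.09, 2.64, 1.00, 3.12, 0.992, 1.54, 1.86, 0.962 and 0.947. For the last 2 Mb it was 0.820, 1.66, 1.02, 1.68, 1.43, 0.951, 1.32, 0.907, 1.08, 1.15, 1.13 and 2.35. For the last 10 Mb it was 1.31, 0.955, 1.60, 1.01, 3.84, 1.02, 5.32, 1.01, 2.05, 2.11, 1.02 and 1.49. With the 50% of domains whose score lay farthest toward their side it was 1.81, 1.93, 1.82, 1.78, 2.39, 1.27, 6.02, 1.23, 0.273, 2.37, 0.709 and 1.95. With all 19 autosomes the 2i sides fell below 1, at 0.821 (serum list), 0.717 (PKCi list) and 0.765 (SRCi list), DNMT1 KO had 0.966 and TKO control 0.927, and the ratios of serum, PKCi, SRCi and TDG KD were 1.44, 1.01, 1.00 and 1.84. Leaving the first 5 Mb out of the rest gave 1.18 for DNMT1 control, 0.989 for PKCi, 0.978 for SRCi, 1.80 for TDG KD and 0.933 for TKO control. Both further alternatives were added after seeing the data. Without chromosome 12 the ratios up to TKO control were 1.23, 0.917, 1.44, 0.921, 0.653, 1.01, 0.651, 0.999, 0.552, 1.93 and 0.917. Without the outermost 1 Mb, DNMT1 control had 1.41, DNMT1 KO 0.726, serum 1.56, 2i over serum 0.849, PKCi 1.01, SRCi 1.02, TDG KD 2.10, TKO control 0.888 and TKO 0.0339. The cause was not tested beyond these settings. The pooled ratios of TDG KD and serum stayed above 1 in every setting run, but not on most chromosomes in each. For the last 2 Mb, TDG KD and serum were each higher than the rest on only 7 of 16 chromosomes. With the 50% of domains with the farthest score, this held on 7 of 16 for TDG KD and 8 of 16 for serum. Leaving out blocks of no signal was no check of the windows, since 0 kb of such blocks lay in them and 5.00 Mb in the rest. Asking for 50% of a domain inside the window kept all 12 domain counts within 1.5 times. With the same 50% of domains, shared bases fell by more than 1.5 times for TDG KD in TKO control (19.2% to 1.97%), in 2i over serum (0.569% to 0.189%) and in DNMT1 KO (1.14% to 0.305%). They also fell for TKO control in serum (41.6% to 11.7%) and in DNMT1 control (63.7% to 18.1%), and for TDG control in 2i over serum (76.1% to 28.6%) and in DNMT1 KO (92.8% to 35.7%). No paired analysis was possible because only 1 library stands for each condition. Read depth is not known, so its effect on the calls was not tested.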

Other observations

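The chromosomes left out by the rule gave other values in their last 5 Mb. On chromosome 6 the 2i side covered 49.7% of the window against serum, 33.2% against PKCi and 37.4% against SRCi, where the rest of the chromosome had 68.6%, 51.6% and 59.0%. On chromosome 8 the window had 50.7%, 42.9% and 53.0%, and the rest 64.6%, 57.6% and 62.8%. In all 6 comparisons the window was thus covered less than the rest of its chromosome. TDG KD covered 58.8% of the window of chromosome 6 against 34.3% of its rest, and 59.5% against 40.1% on chromosome 8. Serum covered only 0.980% and 0% of these windows, but it was also low in the rest of these chromosomes, at 2.20% and 5.81%. On chromosome 11, TKO control covered 92.2% of the window and 94.9% of the rest, and TDG KD 96.8% and 47.1%.

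The opposite ends of the 16 chromosomes, their first 5 Mb, held 507 domains. How much of these first 5 Mb can take reads was not examined, because no genome sequence of the build was used. The values are therefore a description and no measured contrast between the ends. TDG KD covered 5.77% there against 50.3% of the last 5 Mb, and DNMT1 control 10.4% against 53.4%. The same direction held for TKO control (5.76% against 21.5%), PKCi (56.0% against 83.5%) and SRCi (56.3% against 84.4%). Serum covered 35.2% against 45.9% and DNMT1 KO 2.91% against 3.62%. The 2i sides had 2.83% against 5.23% (serum list), 0.439% against 0.726% (PKCi list) and 0.525% against 0.869% (SRCi list). TKO, at 0.956% against 0.393%, and TDG control, at 0.685% against 0.434%, went the other way.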
